A study of Mus musculus with 26 samples.

Results

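The genes described here are the mouse MAP kinase cascade genes, taken as the protein-coding genes of the mm10 RefSeq set whose symbols are Mapk, Map2k, Map3k, Map4k or Mapkapk followed by a number. The rule found 46 members of 21887 protein-coding genes: 5 Map4k, 18 Map3k, 7 Map2k, 13 Mapk and 3 Mapkapk genes. It uses names only and no measured value. The data are ChIP-seq peak lists from RAW264.7 cells, a mouse macrophage line, in which a stable doxycycline-inducible construct made either HA-tagged Nur77, an orphan nuclear receptor (gene Nr4a1), or GFP. Antibodies to HA, RNA polymerase II (Pol II) and histone H3 acetylated at lysine 27 (H3K27ac, a mark of active promoters and enhancers) were used.

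Cells of both lines, controls included, received 50 ng/ml doxycycline for 18 h, so no group lacked the drug. They were either left without further treatment, called untreated below, or given 500 ng/ml lipopolysaccharide (LPS), the bacterial ligand of TLR4, for 1 h. HA ChIP was made in Nur77 cells only, with 2 mM Di(N-succinimidyl) glutarate before 1% formaldehyde, in 3 untreated and 3 LPS libraries, so HA signal has no counterpart in GFP cells here. Pol II and H3K27ac ChIP used formaldehyde alone, with 2 libraries for each line and condition, 8 per target. The labels give 1 stable line per construct and do not name separate cultures, so line and construct cannot be told apart, and p-values measure the spread between libraries, which may be technical. In bulk chromatin, a change in every cell and a change in the share of cells cannot be told apart.

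In a MAP kinase cascade a MAP4K or another upstream signal activates a MAP3K, which phosphorylates a MAP2K, which phosphorylates a MAPK. The classical branches end in ERK, JNK (Mapk8, Mapk9, Mapk10) and p38 (Mapk11, Mapk12, Mapk13, Mapk14), and the MAPKAPK kinases act below p38. In macrophages LPS signals through TLR4 to TAK1 (Map3k7) and TPL2 (Map3k8), which feed these branches and so cytokine production.

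The HA libraries held 6.41 to 18.2 M mapped tags, those of Pol II 11.9 to 23.1 M, those of H3K27ac 22.3 to 28.4 M and the 4 inputs 14.02 to 23.4 M. HA replicate 3 of both conditions had called peaks of 342 and 426 bp, against 826 to 1016 bp in the other HA libraries, and untreated Nur77 Pol II replicate 1 had a recorded fragment length of 1550 bp, against 174 to 318 bp. All 8 macrophage markers had peaks in every Pol II and H3K27ac library, and the fibroblast and hepatocyte markers had none. Summed endothelial markers (Cdh5, Pecam1, Kdr) held 174 to 176 Pol II tags in untreated GFP cells, 289 to 336 after LPS, 280.0 to 339 in untreated Nur77 cells and 640 to 1017 after LPS. Their H3K27ac sums were 134.7 to 148, 198 to 203, 219 to 224 and 348 to 379.7 in the same order. Pecam1 was at 0 in Pol II of untreated Nur77 cells. The neural sum of Pol II (Gfap, Rbfox3 and Snap25) was 52.2 to 82.6, 94.3 to 119.8, 106.6 to 106.9 and 222 to 266 in that order. Snap25 was at 0 in every group, and Rbfox3 in every group but untreated GFP cells, so the other sums were of Gfap alone. Of 3 T cell markers only Cd4 had peaks, with Cd3e and Cd8a at 0, and its Pol II tags were 447 to 660 in untreated GFP cells, 17.8 to 441 after LPS, 344 to 372 in untreated Nur77 cells and 11.1 to 22.7 after LPS. The part of these genes in the results below was not tested.

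A member's value is the sum of the deposited normalized tags (tags per 10 M mapped) of all peaks that overlap its span plus 1 kb on each side, scaled between libraries, and called tags below. Pol II peaks lay over 41 members in every library (89.1%, against 54.3% of all genes), over Mapk13 and Mapkapk3 in some, and over Map3k21, Mapk10 and Mapk4 in none. For H3K27ac 40 members had peaks in every library, against 55.0% of all genes, and Mapk15 joined the 3 members with none. HA peaks lay over 28 members in every library (60.9%, against 23.3% of all genes) and over Map2k2, Map3k10, Map3k21, Mapk13, Mapk15 and Mapk4 in none. These shares count a peak anywhere over the span and so depend on gene length, which was not matched. A member without a called peak is listed at 0, which is below the peak threshold and not a measured absence. Tests cover members with a peak in every library of the target, and a change is called at a false discovery rate of 0.05 over all genes tested, with limma.

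Selected starts that lay inside a site of HA-Nur77, and the 1 member window that carries the response element of Nur77, are shown by the 250 bases before the start (RefSeq, GRCm38.p6, 5′ to 3′ on the gene's strand). The motifs searched on both strands were the Nur77 element NBRE (AAAGGTCA), the AP-1 element (TGANTCA), the cyclic AMP element CRE (TGACGTCA) and the kappaB element. Capitals mark a match, and a sequence without capitals has none of the 4. The windows lie at chr2:72351672-72351921 (minus strand) for Gm52556, chr14:33447159-33447408 (minus strand) for Mapk8, chr19:6340910-6341159 (plus strand) for Map4k2, chr15:89149607-89149856 (minus strand) for Mapk11 and chr11:65745857-65746106 (minus strand) for Map2k4.
Gm52556: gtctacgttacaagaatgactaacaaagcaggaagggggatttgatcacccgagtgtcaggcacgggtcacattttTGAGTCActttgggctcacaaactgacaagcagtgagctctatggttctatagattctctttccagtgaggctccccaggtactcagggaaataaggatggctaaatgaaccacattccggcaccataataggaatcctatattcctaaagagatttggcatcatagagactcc
Mapk8: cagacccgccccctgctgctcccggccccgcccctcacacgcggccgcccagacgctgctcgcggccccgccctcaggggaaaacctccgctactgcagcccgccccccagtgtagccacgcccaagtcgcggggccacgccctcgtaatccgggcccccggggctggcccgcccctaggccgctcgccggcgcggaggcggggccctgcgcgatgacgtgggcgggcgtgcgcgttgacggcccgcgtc
Map4k2: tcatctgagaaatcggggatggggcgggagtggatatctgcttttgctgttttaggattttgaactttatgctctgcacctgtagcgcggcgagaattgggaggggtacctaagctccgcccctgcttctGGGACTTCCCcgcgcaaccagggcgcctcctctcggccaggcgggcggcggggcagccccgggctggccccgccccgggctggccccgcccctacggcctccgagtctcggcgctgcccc
Mapk11: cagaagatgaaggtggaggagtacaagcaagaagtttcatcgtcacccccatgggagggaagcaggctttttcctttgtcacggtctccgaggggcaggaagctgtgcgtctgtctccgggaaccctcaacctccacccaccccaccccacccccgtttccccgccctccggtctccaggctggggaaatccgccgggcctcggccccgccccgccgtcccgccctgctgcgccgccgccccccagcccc
Map2k4: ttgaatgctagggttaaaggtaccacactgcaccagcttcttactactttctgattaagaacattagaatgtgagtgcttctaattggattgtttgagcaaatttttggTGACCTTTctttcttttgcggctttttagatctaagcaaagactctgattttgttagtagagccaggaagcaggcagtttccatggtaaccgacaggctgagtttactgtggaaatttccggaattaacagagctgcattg
Gm52556 is a noncoding RNA gene inside Map3k20 on the other strand, and its start lies in the HA site over Map3k20 that rose after LPS. The Mapk8 and Map4k2 starts, and that of Map2k7, had an HA peak in all 6 libraries, the Mapk11 start only in the 3 LPS libraries, and the Map2k4 window, an internal start, had none.

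RefSeq windows were at hand for 37 of the 46 members, 50 windows in all. The NBRE was in 1 of them, that of Map2k4, against 1.34% of 32851 windows of all genes. AP-1 matches lay in 3 windows, of Map2k6, Map2k7 and Map3k10, against 6.75% of all, and the CRE in that of Mapk10, against 1.55%. The kappaB element was in 5 windows, of Map3k7, Map4k1, Map4k2 and Mapk7 with its pair of starts, against 7.25% of all. A match describes letters in the window and not a bound site.

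HA-Nur77 bound the cascade genes mostly away from their starts, and LPS moved single sites in both directions. Of 145 HA regions over members, 43 had a peak in all 6 libraries, and these lay over 26 members, 4 each over Map2k6 and Map3k5 and 3 each over Map3k3 and Map4k5. Of the 42 with a known distance to a RefSeq start, 4 lay within 1 kb of one (9.52%, against 12.7% of all such HA regions). The site over an edge of Map3k8 has no known distance. Of the 43, 36 lay inside H3K27ac peaks in all 8 libraries. The sites' mean signal, scaled over the HA regions, ran from 17.5 to 270.5 with a median of 53.1.

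The strongest was inside Map3k14, the gene of NIK of the noncanonical NF-kB pathway, 9.05 kb from its start (chr11:103257846-103258862, mm10), with 249, 187 and 318 tags untreated and 278, 216 and 374 after LPS. Its conditions overlapped. Next were sites inside Map3k3, whose kinase MEKK3 acts on several branches (mean 158), Map2k5, the kinase above ERK5 (156), Mapk10, the JNK gene of nervous tissue (143), and a pair inside Map3k5, the stress-activated ASK1 (139.6 and 137). A pair inside Map3k20 (99.6 and 91.5), Map2k3, a kinase of p38 (95.1), and Map4k3 (83.0) complete the 10 highest. The Map3k3 site had 171, 192 and 227 tags untreated and 111, 131 and 117 after LPS, without overlap. Its log2 change of -0.71 ± 0.25 (SE, limma adjusted p = 0.14) was called only with replicate number as a block (adjusted p = 1.4e-05). The Mapk10 site (chr5:102959588-102960604) lay under no Pol II or H3K27ac peak in any library, in a gene with no such peak at all, and a site in Map3k13 (chr16:21873009-21874035) was the other of the 43 outside H3K27ac in every library.

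**Figure D1:**
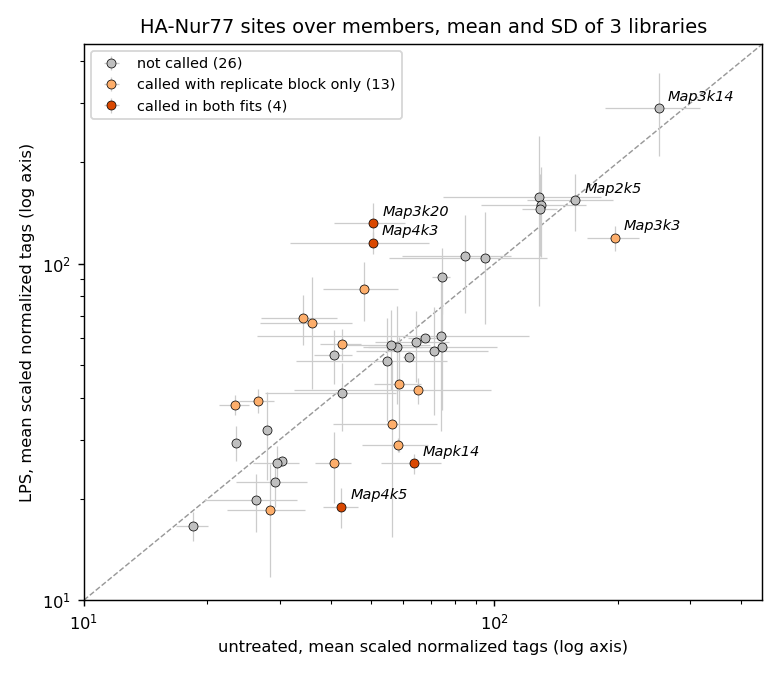
Mean HA signal of the 43 member sites with a peak in all 6 libraries, untreated (horizontal) against LPS (vertical), both in scaled normalized tags on log axes, with SD of 3 libraries as bars and the dashed line marking equal signal. The 4 called sites, in Map3k20 and Map4k3 above the line and in Mapk14 and Map4k5 below it, are coloured apart from the 13 called only with replicate number as a block.

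LPS raised 2 member sites and lowered 2, of 43 tested with limma (4.64% of all 11234 HA sites were called, 3.28% up and 1.35% down). The site inside Map3k20 (chr2:72351014-72352367), a gene for the ribosome-stress kinase ZAK, had 51.1, 60.4 and 40.6 tags untreated and 119, 154 and 124 after LPS. All LPS libraries were above all untreated ones, a log2 change of 1.37 ± 0.27 (SE, adjusted p = 0.024). It lay 66.0 kb from the nearest Map3k20 start. The site inside Map4k3 (chr17:80685756-80686772), 41.8 kb from the start of this MAP4K that acts in JNK and T cell signalling, had 71.7, 43.8 and 36.2 tags untreated and 125, 108 and 113 after LPS. The conditions did not overlap, and the log2 change was 1.23 ± 0.30 (SE, adjusted p = 0.046).

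A site 16.6 kb into Mapk14, the gene of p38 alpha (chr17:28708696-28709712), had 57.0, 75.8 and 58.1 tags untreated and 24.4, 27.5 and 24.5 after LPS. Signal fell by 1.28 ± 0.25 on the log2 scale (SE, adjusted p = 0.025), with every LPS library below every untreated one. A second Mapk14 site, at 5.72 kb, had 74.4 ± 3.79 and 91.2 ± 20.1 tags (SD, n = 3) and was not called. The site inside Map4k5, a MAP4K of the germinal centre kinase family (chr12:69863190-69864488), fell from 47.0, 38.9 and 41.3 to 20.7, 16.0 and 20.2 tags (log2 change -1.13 ± 0.23, SE, adjusted p = 0.028), and it overlaps a region called in input. All 4 calls were lost without untreated replicate 1, untreated replicate 3, LPS replicate 1 or LPS replicate 3.

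Same-numbered HA libraries deviated together, and with replicate number as a block 17 of the 43 sites were called, 8 higher and 9 lower, where 40.4% of all sites were. All 4 sites of Map2k6, the gene of the p38 kinase MKK6, were among the 8, with log2 changes of 0.55 to 1.00 and adjusted p from 0.068 to 0.22 without the block. In 18 of the 43 sites the conditions did not overlap, against 25.6% of all. Among all 145 member regions, 5 had a peak in the 3 LPS libraries only (4.62% of all regions), over Map4k4, Map3k1, where there were 2, Map3k4 and the Mapk11 start, and 1, inside Map3k20, in the 3 untreated only (0.654%). The region at the Mapk11 start held 18.9, 16.9 and 9.59 deposited tags after LPS.

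Summed over whole members, no HA change was called in 28 tested (2.51% of all genes were). Of these, 6 had an unadjusted p under 0.05, as had 915 of all 5103 genes tested. With the block 5 were called, where 19.6% of all genes were. Map4k3, with 115, 89.9 and 33.8 tags untreated and 183, 218 and 168 after LPS, had a log2 change of 1.40, and Map3k4 and Map2k6 had 0.65 and 0.64. Map4k5 fell by 0.73 and Map3k3 by 0.49.

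After LPS Pol II rose over Mapkapk2 and Map3k20 and fell over Map3k13, Map3k9 and Map3k6 in both lines, while the genes of JNK1, TAK1 and MKK4 were not called. Map3k1 fell and Mapk6 rose in GFP cells, and Mapk14 fell in Nur77 cells. In GFP cells LPS changed 8 of 41 members, 4 up and 4 down, where 14.0% of all genes were called, 7.79% up and 6.23% down (25.9% with the block, and 12 members). In Nur77 cells it changed 7, 2 up and 5 down, against 24.9% of all, 12.2% up and 12.7% down. With the block 38.7% of all genes and 11 members were called there. The counts of 8 and 7 both include Mapk11, whose sums turned on the edge of a neighbour's peak, as described below. Without scaling the Nur77 count became 12, 2 up and 10 down, as the median log2 change of all genes moved to -0.35. The share of all genes called without scaling is not given. With scaling the members' median log2 change was 0.25 in GFP cells and -0.01 in Nur77 cells, and that of all genes 0.01 in both.

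Map3k20 had 301 and 483 Pol II tags in untreated GFP cells and 1119 and 996 after LPS. In Nur77 cells it had 349 and 430.2 untreated and 1476 and 1247 after LPS. All 4 LPS libraries were above all 4 untreated ones, with log2 changes of 1.47 ± 0.25 (SE, adjusted p = 0.013) and 1.81 ± 0.25 (adjusted p = 0.0041). An HA site inside Map3k20 also rose, as did one inside Map4k3.

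Map3k1, whose kinase MEKK1 activates JNK, had 564 and 859 tags in untreated GFP cells and 296 and 236 after LPS (log2 change -1.39 ± 0.31, SE, adjusted p = 0.029). Nur77 cells had 504 and 609.6, then 387 and 237, which was not called (-0.87 ± 0.31, adjusted p = 0.084). Both lines had lower tags in each LPS library than in any untreated one.

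Map3k13, the gene of the leucine zipper kinase LZK, went from 512 and 357 to 229 and 126 in GFP cells and from 373 and 333 to 115 and 90.5 in Nur77 cells. The log2 changes were -1.32 ± 0.32 (SE, adjusted p = 0.040) and -1.78 ± 0.32 (adjusted p = 0.010), with no overlap of conditions. Map3k9, a mixed-lineage kinase gene, had 533 and 779.9 tags untreated and 313 and 332 after LPS in GFP cells, and 523 and 641 against 232 and 206 in Nur77 cells. It fell by 1.00 ± 0.22 (SE, adjusted p = 0.029) and by 1.40 ± 0.22 (adjusted p = 0.0058) on the log2 scale. Map3k6, the gene of the ASK1 partner ASK2, fell from 316 and 335 to 159.7 and 174 in GFP cells and from 266 and 305 to 104 and 79.2 in Nur77 cells. Its log2 changes were -0.96 ± 0.19 (SE, adjusted p = 0.022) and -1.63 ± 0.19 (adjusted p = 0.0023).

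Map3k14 went from 827 and 1176 tags to 590.1 and 519.7 in GFP cells and from 917 and 1156 to 701 and 632 in Nur77 cells. It was not called, in GFP cells by a narrow margin (adjusted p = 0.05 after rounding) and in Nur77 cells with an adjusted p of 0.080, and in GFP cells it was called with the block (adjusted p = 0.034). TAK1's gene Map3k7 held 309.7 to 558 tags over the 8 libraries and TPL2's gene Map3k8 held 405 to 906. Neither was called, with or without the block. Map3k5 held 868 to 2964 tags, and its replicates differed widely after LPS, at 2331 and 1149.6 in GFP cells and 2964 and 1109 in Nur77 cells.

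No MAP2K gene was called without the block. Map2k6 had 71.8 and 137 tags untreated and 146 and 258 after LPS in GFP cells, and 158 and 173 against 342 and 348 in Nur77 cells. Its log2 changes were 0.96 ± 0.37 (SE, adjusted p = 0.14) and 1.06 ± 0.37 (adjusted p = 0.081), called in both lines with the block (adjusted p = 0.046 and 0.025). Map2k2, the gene of the ERK kinase MEK2, had 1258 and 1095 tags untreated and 2839.7 and 2639 after LPS in GFP cells, with a log2 change of 1.22 ± 0.32 (SE, adjusted p = 0.052, and 0.043 with the block). Nur77 cells had 1246 and 1086, then 1145 and 2359, and there the conditions overlapped. Only 23.7% of Map2k2 tags lay inside the gene plus 1 kb, and 33.0% lay in peaks that also reach a neighbour. Its partner Map2k1 held 475 to 2079 tags, Map2k3 416 to 922, and the JNK kinase genes Map2k4 and Map2k7 218 to 303 and 487 to 723. All Map2k7 tags lay in peaks that also reach a neighbouring gene.

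Of the MAP4K genes none was called without the block. Map4k3 had 138 and 218 tags untreated and 187 and 387 after LPS in GFP cells, and 98.1 and 152 against 185 and 346 in Nur77 cells, where the conditions did not overlap. With the block it was called in both lines, with log2 changes of 0.63 (adjusted p = 0.034) and 1.04 (adjusted p = 0.0051).

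Among the MAPK genes, Mapk6, the gene of the atypical kinase ERK3, had 839 and 1023 Pol II tags untreated and 2343 and 1501 after LPS in GFP cells (log2 change 1.02 ± 0.25, SE, adjusted p = 0.043). Nur77 cells had 863 and 1126, then 1693 and 1683 (0.78 ± 0.25, adjusted p = 0.068). Each LPS library was above each untreated one in both lines. Of the Mapk6 tags 49.0% lay inside the gene plus 1 kb. The mean peak length went from 8.45 to 16.5 kb in GFP cells and from 7.11 to 10.2 kb in Nur77 cells. Tags per kb of peak went from 110 to 116 and from 140 to 166. Mapk14 fell in Nur77 cells, from 489 and 549 to 323 and 235 tags (log2 change -0.91 ± 0.24, SE, adjusted p = 0.034), and had 359 and 496, then 278 and 340.2, in GFP cells, which was not called. Of its tags 74.8% lay in peaks that also reach a neighbour. Mapk8, the JNK1 gene, held 125 to 165 tags over all 8 libraries. The ERK1 gene Mapk3 held 49.9 to 117 and the JNK2 gene Mapk9 239.9 to 661, and neither was called without the block. Mapk9 fell by 0.70 in Nur77 cells with the block (adjusted p = 0.011).

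Mapkapk2, the gene of MK2, which stabilises cytokine mRNAs below p38, had 356 and 587 tags in untreated GFP cells and 1372 and 1479 after LPS. Nur77 cells had 461 and 793, then 1896 and 2804. All LPS libraries were above all untreated ones, with log2 changes of 1.64 ± 0.35 (SE, adjusted p = 0.027) and 1.93 ± 0.35 (adjusted p = 0.010). The length called as Pol II peaks over it grew from a mean of 6.06 to 45.2 kb in GFP cells and from 9.70 to 52.4 kb in Nur77 cells. Tags per kb of peak therefore fell, from 77.8 to 31.5 and from 64.6 to 44.9. Mapkapk3 had 17.8 and 60.9 tags in untreated GFP cells and 0 and 17.6 after LPS, and 40.0 and 57.2 against 0 and 9.29 in Nur77 cells, and was not tested because 2 libraries had no peak.

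**Figure D2:**
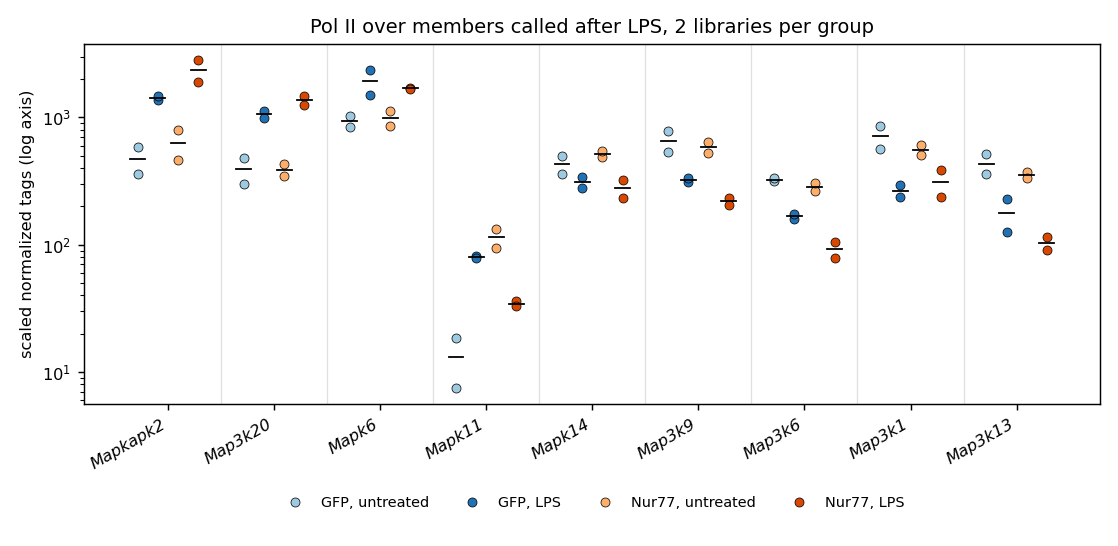
Pol II over the 9 members called after LPS in either line, in scaled normalized tags on a log axis, with 1 point per library and a bar at the mean of 2. Members are ordered by their mean change over the lines in which they were called, from Mapkapk2 and Map3k20, whose LPS points are all above the untreated points in both lines, to Map3k13, whose LPS points are all below.

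Mapk11, the gene of p38 beta, had 18.6 and 7.53 tags in untreated GFP cells and 81.9 and 78.7 after LPS, and 134 and 94.6 against 35.9 and 33.2 in Nur77 cells. It was called up in GFP cells (log2 change 2.65 ± 0.43, SE, adjusted p = 0.011) and down in Nur77 cells (-1.68 ± 0.43, adjusted p = 0.032), and the difference between these was not called (-4.33 ± 0.61, adjusted p = 0.14). These sums turned on the edge of a peak at the start of its neighbour Mapk12. That peak reached 707, 37, 482 and 779 bp into the Mapk11 window in the 4 libraries with high values, and ended 91 to 264 bp short of it in the others. The peak over Mapk11 itself held 18.1 and 8.27 deposited tags in untreated GFP cells, 26 and 32.2 after LPS, 49.9 and 22.9 in untreated Nur77 cells and 31 and 30.8 after LPS. With each peak weighted by its overlap, the log2 changes were 1.62 (adjusted p = 0.055) and -0.56 (adjusted p = 0.42). For this reason no genes of like pattern are given.

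**Figure D3:**
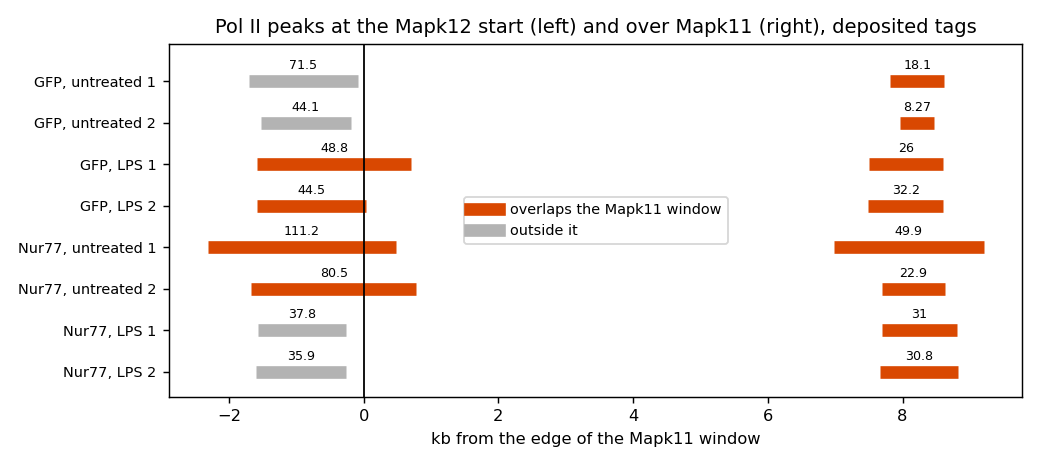
Pol II peaks at the Mapk12 start (left) and over Mapk11 (right) in the 8 libraries, by distance in kb from the edge of the Mapk11 window (vertical line), with the deposited normalized tags above each bar. The left peak crosses the line in both LPS libraries of GFP cells and both untreated libraries of Nur77 cells, and stops short of it in the other 4.

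The Pol II counts rested on few libraries, and no share of all genes is given for the fits that follow. Without GFP LPS replicate 1 the GFP count of 8 became 1, without GFP untreated replicate 2 or GFP LPS replicate 2 it became 3, and without Nur77 untreated replicate 1 the Nur77 count of 7 became 3. Map3k20, Map3k6 and Map3k9 in Nur77 cells were called in all 8 fits that left out 1 library, whereas Map3k13 and Mapk6 in GFP cells were called in 1 of 8. Without peaks over input regions Map3k9 was called in neither line (log2 change -0.45 and -0.20), Map3k20 was not called in GFP cells and Mapk14 not in Nur77 cells, and Mapkapk2 had no value.

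Between the lines Pol II differed at no member by limma. Untreated, 0 of 41 were called (0.244% of all genes), and 2 had an unadjusted p under 0.05, as had 1034 of all 11881 genes. With the block 1 was called (0.606% of all), Mapk11, whose sums turned on the edge of a neighbour's peak. After LPS 0 were called (0.547%), and 5 had an unadjusted p under 0.05, as had 1711 of the 11881 genes. With the block 0 were called (2.28% of all). The difference of the LPS response between lines was called at 0 members (0.0673%), and at 0 with the block (0.0758% of all). Its unadjusted p was under 0.05 at 3 members and at 415 of the 11881 genes.

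H3K27ac changed with LPS at more members, with rises over Map4k3, Map2k6 and Map3k20 and falls over Map3k9, Map3k13, Map3k6 and Map3k14 in both lines. In GFP cells 21 of 40 members changed, 10 up and 11 down, where 54.4% of all genes did, 29.0% up and 25.4% down. In Nur77 cells 26 changed, 8 up and 18 down, against 58.5% of all, 30.3% up and 28.3% down. The lower share was 45% of members in Nur77 cells, against 28.3% of all genes, and 27.5% against 25.4% in GFP cells. Called in both lines, and in the same direction, were 19 members. The share of all genes called in both lines was not counted, so this number has no background beside it. Without scaling the splits became 4 up and 25 down, and 3 up and 28 down. The median of all genes then moved to -0.40 and -0.42, so the directions here are relative to all genes. The fit described next had 1 library in each of 3 groups, and no share of all genes is given for it. Without the 3 libraries called with another option (GFP untreated 1, GFP LPS 1 and Nur77 untreated 1), a setting chosen after seeing the data, the counts of 21 and 26 became 9 and 12.

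Map4k3 had 494 and 509.7 H3K27ac tags in untreated GFP cells and 1233 and 1097 after LPS, and 365 and 357 against 908 and 847 in Nur77 cells. The log2 changes were 1.21 ± 0.07 (SE, adjusted p = 1.6e-05) and 1.28 ± 0.07 (adjusted p = 1.3e-05). Conditions were far apart in each line, and Nur77 cells were lower than GFP cells in both conditions. Map4k1, the haematopoietic kinase HPK1, fell by 0.29 and 0.26 on the log2 scale, and 95.9% of its tags were in peaks shared with neighbours. In Nur77 cells Map4k5 fell by 0.37 and Map4k2 by 0.77. Neither was called in GFP cells, and neither differed in response between the lines by the test. All Map4k2 tags lay in shared peaks, at 54.5 and 54.3 untreated and 26.9 and 36.8 after LPS in Nur77 cells.

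Among the MAP3K genes Map3k20 rose from 1737 and 1918 to 3422 and 3111 tags in GFP cells and from 1585 and 1409 to 3129 and 2748 in Nur77 cells. Its log2 changes were 0.84 ± 0.09 (SE, adjusted p = 0.00028) and 0.97 ± 0.09 (adjusted p = 0.00013). Map3k19 rose by 0.55 and 0.61, Map3k5 by 0.35 and 0.31 and Map3k4 by 0.36 and 0.23. Without scaling Map3k5 had -0.06 and -0.13 and Map3k4 had -0.05 and -0.20. Map3k9 went from 814 and 817 to 415 and 387 tags in GFP cells and from 694 and 708 to 267 and 323 in Nur77 cells, log2 changes of -1.02 ± 0.09 (SE, adjusted p = 9.7e-05) and -1.25 ± 0.09 (adjusted p = 3.7e-05).

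Map3k14 went from 1697 and 1641 to 968 and 975 tags in GFP cells and from 2143 and 2043 to 919 and 1054 in Nur77 cells. It fell by 0.78 ± 0.07 (SE, adjusted p = 0.00011) and by 1.09 ± 0.07 (adjusted p = 2.4e-05). Its strongest HA site, by contrast, was not called. Map3k13 fell by 0.99 and 1.01, Map3k6 by 0.86 and 1.03, Map3k1 by 0.77 and 0.75 and the ASK3 gene Map3k15 by 0.47 and 0.64. Map3k9, Map3k13 and Map3k6 thus fell in both Pol II and H3K27ac in both lines. In Pol II, Map3k9 was called in neither line without peaks over input regions. The Pol II call of Map3k13 in GFP cells was lost in most fits that left out a library. In Nur77 cells Map3k8 also fell, from 693 and 633 to 533 and 431 tags (log2 change -0.47 ± 0.13, SE, adjusted p = 0.017), Map3k12 by 0.40 and Map3k11 by 0.23. Of the Map3k12 tags 87.2%, and of the Map3k11 tags 99.7%, lay in peaks shared with neighbours. In GFP cells Map3k8 had 621 and 587, then 623 and 503, and was not called. Map3k7 held 307 to 342 tags over the 8 libraries.

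Of the MAP2K genes Map2k6 rose from 185 and 198 to 408 and 398 tags in GFP cells and from 258 and 262 to 588 and 610.2 in Nur77 cells, with log2 changes of 1.07 ± 0.06 (SE, adjusted p = 1.5e-05) and 1.20 ± 0.06 (adjusted p = 9.3e-06). The 4 groups did not overlap, with the lowest values in untreated GFP cells and the highest in Nur77 cells after LPS. Map2k7 fell by 0.25 and 0.29, and Map2k1 by 0.15 in Nur77 cells. Of the Map2k7 tags 99.1% lay in peaks shared with neighbours. Map2k3 had 699 to 700.1 tags untreated and 763 to 797 after LPS in GFP cells, which was not called (adjusted p = 0.053). Map2k4 held 179 to 264 and Map2k2 313 to 461 tags, and neither was called.

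Of the MAPK genes Mapk6 rose, from 846 and 835 to 1368 and 1199 tags in GFP cells (log2 change 0.61 ± 0.09, SE, adjusted p = 0.0010) and from 851 and 931 to 1162 and 1026 in Nur77 cells (0.29 ± 0.09, adjusted p = 0.024). Mapk14 fell by 0.26 and 0.34, Mapk9 by 0.34 and 0.27 and Mapk7, the ERK5 gene, by 0.33 and 0.41. Mapk12, p38 gamma, fell by 1.06 in Nur77 cells, from 41.6 and 47.2 to 25.7 and 16.7 tags, and had 28.1 and 25.9, then 24.3 and 27.8, in GFP cells. Mapk3 rose by 0.28 in GFP cells. Without scaling Mapk3 had -0.13 there and Mapk6 had -0.14 in Nur77 cells. Mapk8 held 111 to 161 tags and was not called. Mapkapk2 rose by 0.42 and 0.35 (-0.09 in Nur77 cells without scaling), from 1297 and 1373 to 1834 and 1744 tags in GFP cells, while its mean H3K27ac peak length went from 29.1 to 24.8 kb. Mapkapk3 had 39.4 and 37.9 tags in untreated GFP cells, 12.0 and 0 after LPS, 28.8 and 24.9 in untreated Nur77 cells and 0 in both libraries after LPS.

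**Figure D4:**
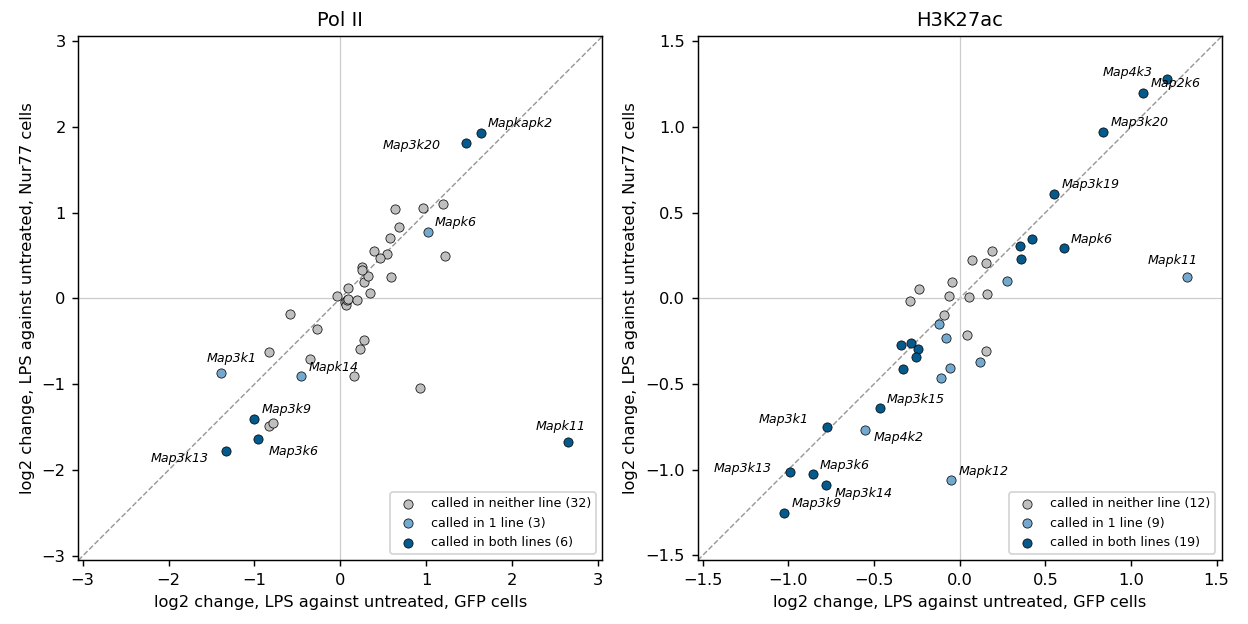
Log2 change of each tested member after LPS in GFP cells (horizontal) and Nur77 cells (vertical), for Pol II on the left and H3K27ac on the right, coloured by the number of lines in which it was called, with the dashed line marking equal change. In Pol II 6 members were called in both lines. Of these Mapk11 alone, whose sums turned on the edge of a neighbour's peak, changed in opposite directions. In H3K27ac 19 were called in both lines, all in the same direction. The shares of all genes called in both lines were not counted.

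The H3K27ac response to LPS differed between the lines at 0 members (0.855% of all genes were called). An unadjusted p under 0.05 was found at 7 members and at 1751 of all 12046 genes tested. The nearest was Map4k5, with a difference of -0.49 ± 0.10 (SE, adjusted p = 0.082). No member is therefore shown to respond differently in the lines.

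The lines themselves differed in H3K27ac. Map2k6 and the genes of ERK1, p38 alpha and MEK1 were higher in Nur77 cells in both conditions, Mapk11 only in the untreated comparison, and Map4k3, Map4k5 and Map3k1 were lower in both. With tags per kb Mapk3 turned to -0.12 untreated, and Map2k1 to -0.13 and Map3k1 to 0.02 after LPS. Untreated, 10 of 40 members differed, 7 higher and 3 lower in Nur77 cells, where 25.0% of all genes did, 13.0% higher and 12.0% lower. After LPS 12 differed, 6 higher and 6 lower, against 32.6% of all, 15.0% higher and 17.6% lower. In both conditions these shares were near those of all genes. Without the same 3 libraries the counts became 0 and 2.

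Map2k6 was higher in Nur77 cells by 0.44 ± 0.06 (SE, adjusted p = 0.0023) untreated and 0.57 ± 0.06 (adjusted p = 0.00064) after LPS. Mapk14 had 1123 and 1117 tags in untreated GFP cells and 1410.3 and 1429.7 in untreated Nur77 cells, a log2 difference of 0.34 ± 0.06 (SE, adjusted p = 0.0047), and 0.26 after LPS (adjusted p = 0.013). Mapk3 had 88.0 and 86.9 against 119 and 123 tags untreated (0.47 ± 0.08, SE, adjusted p = 0.0059) and was higher by 0.29 after LPS. Map2k1 was higher by 0.30 and 0.27, Map3k14 by 0.33 and Map2k3 by 0.21 untreated, and Map3k3 by 0.43 and Map2k5 by 0.76 after LPS. The 2 Map2k5 libraries of Nur77 cells after LPS held 1416 and 872 tags.

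Mapk11, whose H3K27ac sum never included the peak at the Mapk12 start, had 8.99 and 8.41 tags in untreated GFP cells, 20.1 and 27.2 after LPS, 21.8 and 25.3 in untreated Nur77 cells and 24.4 and 27 after LPS. Untreated GFP cells stood apart below the other 3 groups, which overlapped. The gene rose with LPS in GFP cells by 1.33 ± 0.22 (SE, adjusted p = 0.0018) and was higher in untreated Nur77 than untreated GFP cells by 1.34 ± 0.22 (adjusted p = 0.0042). These comparisons share the untreated GFP libraries.

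Lower in Nur77 cells were Map4k3, by a log2 difference of -0.47 ± 0.07 (SE, adjusted p = 0.0030) untreated and -0.41 ± 0.07 (adjusted p = 0.0049) after LPS, and Map3k1, with 1389 and 1435 against 1065 and 1019 tags untreated (-0.44 ± 0.10, SE, adjusted p = 0.015). Map4k5 had 423 and 428 tags in untreated GFP cells and 315 and 312 in Nur77 cells, and 437 and 488 against 247 and 238 after LPS. Its differences were -0.44 ± 0.07 (SE, adjusted p = 0.0037) and -0.93 ± 0.07 (adjusted p = 0.00014), and 70.8% of its tags lay in peaks shared with neighbours. Map3k9, Map3k6 and Map3k12 were lower after LPS, by -0.45, -0.41 and -0.28.

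Mapk13, p38 delta, had H3K27ac peaks in all 4 Nur77 libraries, at 8.6 and 8.32 tags untreated and 13.0 and 13.5 after LPS, and in no GFP library. It was the 1 member with this pattern, which 0.145% of all genes with any peak had. Its Pol II tags were 67.3 and 60.5 in untreated Nur77 cells and 16.9 and 11.9 after LPS, against 12.3 in 1 of 4 GFP libraries and 0 in the rest.

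**Figure D5:**
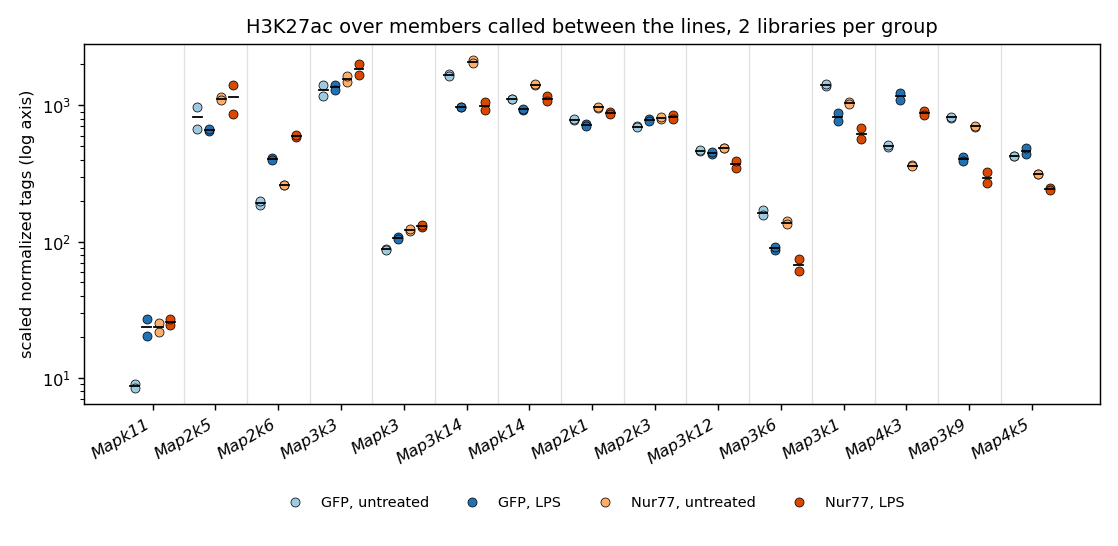
H3K27ac over the members called between the lines in either condition, in scaled normalized tags on a log axis, with 1 point per library and a bar at the mean of 2, ordered by their mean difference over the conditions in which they were called, from higher to lower in Nur77 cells. Untreated GFP libraries stand lowest for Mapk11 and Map2k6, and both Nur77 groups stand below both GFP groups for Map4k5.

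With tags per kb of called peak 0 members differed between lines in either condition. No share of all genes is given for tags per kb or for the fits below that left out a library. Map4k5 then had -0.34 untreated and -0.03 after LPS, and Map2k6 had 0.26 and 0.04. Without Nur77 untreated replicate 2 the untreated count of 10 became 6, and after LPS the count of 12 became 4 or 7 when GFP LPS replicate 1 or 2 was left out, and 6 when Nur77 LPS replicate 1 was. Without Nur77 untreated replicate 1 the LPS count of 26 in Nur77 cells became 16.

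Tested in both marks and called in none of these comparisons without the block were, among others, Map4k4, Map3k2, Map3k7, Map3k10, Map2k2 (called in Pol II of GFP cells with it), Map2k4, Mapk8 and Mapkapk5. Mapk15, tested in Pol II only, was not called either.

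Of the genes that feed or restrain the cascade, the MAPK phosphatases were those with the most calls in Pol II. In each line 5 of 9 tested rose and 0 fell, where 7.79% of all genes rose in GFP cells and 12.2% in Nur77 cells, with list medians of 1.63 and 1.66 against 0.01 for all genes in both. The counts of the other lists below stand against these shares and, for falls, 6.23% and 12.7%. Dusp8, a JNK and p38 phosphatase gene, rose from 33.3 ± 11 to 356 ± 95.8 tags (SD, n = 2) in GFP cells and from 31.2 ± 0.47 to 372 ± 66.3 in Nur77 cells. Dusp4 rose by 1.57 and 1.72 on the log2 scale and Dusp2 by 1.63 and 1.93. H3K27ac rose over 7 phosphatase genes and fell over 1 in GFP cells, and over 6 and 2 in Nur77 cells, where 29.0% and 30.3% of all genes rose and 25.4% and 28.3% fell.

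Of 8 feedback inhibitors of RAS and ERK tested in Pol II, 2 rose in GFP cells, and 3 rose and 1 fell in Nur77 cells, with Spred3 at 2.83 and 2.78 and Spred1 at 1.30 and 1.29. Of 10 scaffolds 3 rose and 1 fell in each line, among them Iqgap1 (1.40 and 1.86) and Lamtor3 (1.34 and 1.35) up and Arrb1 (-1.22 and -1.74) down. Of 12 MAPK-regulated transcription factors 3 fell in GFP cells and 2 in Nur77 cells, with Mef2d at -1.67 and -1.16 and the ERK substrate Elk1 at -2.70 and -1.70.

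Of 12 adaptors between TLR4 and the MAP3K genes 1 rose in each line, Irak2 (0.85 and 1.14), a kinase-like adaptor below TLR4. Of 10 RAS and RAF genes 0 changed in GFP cells, and Braf rose (0.80) and Sos1 fell (-1.14) in Nur77 cells. Of 7 other kinases below MAPKs Rps6ka2 rose in both lines (1.52 and 1.02) and Rps6ka5 fell in Nur77 cells (-1.08), and of 10 other Ste20-related kinases Mink1 rose in both (1.29 and 1.18). In H3K27ac 6 of the 12 TLR4 adaptors rose in each line (29.0% and 30.3% of all genes did), and 2 fell in GFP cells and 1 in Nur77 cells. Of the 12 transcription factors 6 fell in each line (25.4% and 28.3% of all genes did), and 3 rose in GFP cells and 2 in Nur77 cells. In HA, Nfkb1 (2.74), Dusp8 (1.70) and the scaffold gene Ksr1 (1.48) rose and Mef2c fell by 0.81. Of all genes tested in HA 1.82% rose and 0.686% fell. The calls were 1 of 8 adaptors, 1 of 4 phosphatases and 1 of 7 scaffolds up. Of 4 transcription factors tested in HA 1 fell, and no gene of the other lists was called. Across all the lists, no gene differed in Pol II between the lines.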

How the data were processed

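RAW264.7 ChIP-seq libraries (26: 6 HA, 8 Pol II, 8 H3K27ac, 4 input) were grouped by their labels, with 3 libraries per group for HA, 2 for Pol II and H3K27ac and 1 for input. The submitters' processing notes name HISAT2 2.1.0, HOMER (version not given in the sources used here) and the mm10 build. Peaks were called in each library alone, without input, per the file headers. The unit used was the deposited normalized tag signal of each peak, scaled by the authors to 10 M mapped tags. The deposited files also hold peak scores, focus ratios as a fraction, fold ratios and p-values, which were not used. The sum of tags was taken over peaks overlapping (1 bp or more) a protein-coding RefSeq gene plus 1 kb. For sites, the peaks of the 6 HA libraries were merged into 42505 regions.

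Sums were scaled per target by the trimmed mean of M-values, put on a log2 scale with pseudocount 1 (so fold changes of low genes are understated), and tested with limma 3.58.1 in R 4.3.3 on genes with a peak in every library, at a Benjamini-Hochberg false discovery rate of 0.05. The values are not whole counts, so no count test was run. Same-numbered libraries deviated together in HA (correlations 0.38 to 0.64 over 3 pairs) and Pol II (0.21 to 0.46 over 12 pairs) but not in H3K27ac (-0.06 to 0.10). With 2 libraries per group the deviations mirror each other, so each Pol II and H3K27ac value appears for both replicate numbers. The 12 pairs are therefore not independent. The pairing comes from these correlations, since the labels name no batch. Alternatives were no scaling, pseudocount 10, tags weighted by overlap, tags per kb, peaks over input regions left out, genes with a peak in at least 1 library, a replicate block, and each library left out.

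The members, gene lists and tests were chosen with earlier results of these data known. Named were members past the threshold, a set of core kinases whatever their values, up to 3 genes of each list with the smallest p, and the 10 strongest and all called HA sites. Map4k3, Map3k14, Mapk13, Mapk10 and members called only with the block were in part chosen after their values were seen. Peaks below the callers’ thresholds are not in the lists, and the files hold summed tags for called peaks only, so a depth-based floor for members at 0 was not computed. The values of 1 member are not reported here.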

Additional observations from a re-analysis of the deposited data

How the results depend on the processing

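Counts of members called moved by more than 1.5 times as follows. Shares of all genes are given above for the block in HA and Pol II, and not for the other settings here. HA sums gave 1 with tags per kb, 5 with the replicate block and 2 with the block and without both replicate 3 libraries, against 0. Pol II after LPS in GFP cells gave 1 with tags per kb and 4 without peaks over input regions, against 8. In Nur77 cells it gave 12 without scaling, 2 with tags per kb, 4 without input peaks and 11 with the block, against 7. Between untreated lines it gave 1 without scaling, with pseudocount 10 and with the block, against 0. H3K27ac between lines gave 0 in either condition with tags per kb. HA sites gave 0 without scaling, 13 over regions in at least 3 libraries, 17 with the block, and 0 without both replicate 3 libraries, or 11 with the block too, against 4. Without the 3 H3K27ac libraries called with another option (GFP untreated 1, GFP LPS 1 and Nur77 untreated 1), the counts of 21, 26, 10 and 12 became 9, 12, 0 and 2. That setting, which left 1 library in each of those 3 groups, and the block without replicate 3, were chosen after seeing the data.

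Leaving out each library in turn gave 1 to 7 and 3 to 10 members for Pol II after LPS in GFP and Nur77 cells, 16 to 22 and 16 to 27 for H3K27ac after LPS, 6 to 14 and 4 to 11 for H3K27ac between lines, 0 to 4 HA sites, and 0 for the other counts. A group left with 1 library was assumed to vary like the others. No share of all genes is given for these fits. For H3K27ac, whose numbers do not pair the libraries, the replicate block gave 22, 24, 9, 10 and 0.

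Directions turned for single genes. In Pol II with tags per kb, Mapkapk2 became -1.26 in GFP and -0.69 in Nur77 cells. In H3K27ac without scaling, GFP cells after LPS had -0.058 for Map3k5, -0.052 for Map3k4, -0.13 for Mapk3 and -0.25 for Map2k3, and Nur77 cells -0.087 for Mapkapk2, -0.13 for Map3k5, -0.20 for Map3k4, -0.14 for Mapk6, -0.33 for Mapk3, -0.40 for Map2k3 and -0.34 for Map3k7. With tags per kb, GFP cells had -0.041 for Mapk3 and 0.34 for Map2k1, and Nur77 cells 0.22 for Map4k5, 0.14 for Map3k12, 0.12 for Map2k1, 0.84 for Mapk8 and 0.73 for Map2k2, which had 0.56 when weighted by overlap. Between untreated lines tags per kb gave -0.00029 for Map2k3, -0.019 for Map3k14 and -0.12 for Mapk3, and after LPS -0.13 for Map3k3, 0.019 for Map3k1, 0.15 for Map3k12 and -0.13 for Map2k1. The causes were not tested.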
